A study of Mus musculus with 2 samples.

Results

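Trimethylated lysine 4 of histone H3 (H3K4me3) was higher in Dicer knockout (KO) than in wild-type (WT) mesenchymal stromal cells at 738 listed events, and 307 of them are described here. They were chosen by position: an event of acetylated lysine 27 (H3K27ac) that was also higher in KO lay within 5 kb, and no listed event of trimethylated lysine 36 (H3K36me3), in either direction, lay within 10 kb. The 307 are 41.6% of the H3K4me3 events higher in KO (95% interval 38.0 to 45.3) and belong to 21418 events over 3 marks and 6 lists. All values below come from the contrasts that chose the events, so they are descriptions without a test.

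The cells were monoclonal immortalized mouse lines, with Dicer (WT) or without it (KO), grown in Alpha-MEM with fetal bovine serum and antibiotics; the sample titles call them fibroblasts. Immortalization and the single-clone origin are shared by both genotypes, so a difference between clones and an effect of Dicer cannot be told apart, and the Dicer allele is not given in the sources used here. The labels describe 1 H3K27ac sample per genotype, whereas the H3K4me3 and H3K36me3 lists name the genotypes without a sample of their own. Each list gives 1 value per genotype, so replicate error is unknown, and library totals are not used here. Chromatin lists hold no RNA levels, so the labelled cell type could not be checked against marker genes.

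Dicer is the ribonuclease that cuts microRNA precursors into mature microRNAs. H3K4me3 is laid down around the start sites of active genes by SET1/MLL methyltransferases, and H3K27ac is written by the acetyltransferases p300 and CBP at active promoters and enhancers. H3K36me3 is placed by SETD2, which travels with elongating RNA polymerase II, and so lies along the bodies of transcribed genes. The 307 events thus carried both initiation-type marks at higher levels in KO at the scale of the lists, with no listed change of the elongation-type mark within 10 kb. Absence from the H3K36me3 lists says only that no event passed the authors' threshold there.

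The software that called the H3K4me3 events also reported a short sequence (k-mer) at some of them. At 45 of the 307 events (14.7%, 10.9 to 19.1) a k-mer was given, and all 45 carried one of 4 related 8-base sequences. They are shown because they are the sequence that the deposited lists attach to these events, printed whole in capitals, 5′ to 3′, with the number of events in the sentences after them.
k-mer A: TTCACTTT
k-mer B: TTTCACTT
k-mer C: ACTTTCAC
k-mer D: CACTTTCA
k-mer A was given at 20 of the 307 events, B at 18, C at 5 and D at 2. Each is a window of a repeat of the unit TTTCAC, whose reverse complement is GTGAAA, and none of the 4 was given at any of the 5542 H3K4me3 events higher in WT. GEM, the program behind both H3K4me3 lists, learns its k-mers from the data it is given, so lists called separately can differ in them. As background, GAAA elements with a pair of bases between them form the core of the interferon-stimulated response element, the site bound by interferon regulatory factors. A repeat of the unit over 12 bases, GTGAAAGTGAAA, holds that pattern, but no 8-base k-mer spans it, so its presence at the events was not shown.

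The k-mer was not particular to the 307 events. It was given at 62 of 294 H3K4me3 events higher in KO that had neither H3K27ac nor H3K36me3 nearby (21.1%, 16.6 to 26.2), and at 14 of 111 that had both (12.6%, 7.07 to 20.3). With H3K36me3 but no H3K27ac nearby it was given at 5 of 26 (19.2%, 6.55 to 39.4). The intervals overlap, and the differences were not tested. Both strands searched, k-mer A occurred in 1.56% of 32851 RefSeq promoter windows of 300 bases (build GRCm38), B in 1.60%, C in 0.846%, D in 1.21%, at least 1 of the 4 (which overlap each other) in 4.05%, and a GAAA pair with 2 bases between in 3.44%. The window in which the software searched is not given in the sources used here, so these shares are no baseline for the 14.7%. The 45 events lay at 44 loci on 16 chromosomes, with 21 k-mers on the plus and 24 on the minus strand. Every one of the 45 had its H3K27ac event within 1 kb (100%, 92.1 to 100), against 237 of the 262 events without a k-mer (90.5%, 86.2 to 93.7). Of the 111 events with both marks nearby, 99 had H3K27ac within 1 kb (89.2%), among them 13 of the 14 with a k-mer. These differences were not tested. The H3K4me3 ratio of the 307 was similar with and without a k-mer. The median was 3.97 (quartiles 3.24 and 6.25) at the 45 events and 4.26 (2.93 and 7.11) at the other 262.

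The k-mer events with the largest −log10 q for H3K4me3, picked out after their values were seen, spanned a wide range of levels. At 34660238 on chromosome 6 (k-mer D), the H3K4me3 event held 1268 KO reads, the most of any of the 307, against 354 from WT after scaling, which gives 3.58 (3.04 to 4.24). H3K27ac 28 bp away had 1188 reads in KO against 481 in WT. At 33855255 on chromosome 12 (k-mer A) the reads were 401 and 36.5, a ratio of 10.99 (6.78 to 19.1). At 137155510 on chromosome 1 (k-mer C) they were 349 and 55.8, a ratio of 6.25 (4.20 to 9.71). At 26014421 on chromosome 16 (k-mer A) they were 433 and 98.1, a ratio of 4.41 (3.23 to 6.08). At 64971382 on chromosome 17 (k-mer A) they were 403 and 37.2, a ratio of 10.8 (6.81 to 19.2). Among these named events alone, the first thus had the most scaled WT reads too, while those on chromosomes 12 and 17 had the fewest.

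Reads of H3K4me3 in KO ran from 110 to 1268 per event, with a median of 225 (quartiles 182 and 319). Scaled WT reads ran from 4.8 to 365, with a median of 55.8 (33.8 and 81.5), which correspond to a median of 26.01 reads before scaling. The ratio is KO reads over scaled WT reads, and its 95% interval, from both unscaled read numbers, covers counting error only. The median ratio was 4.20 (quartiles 2.97 and 6.86), and 162 of the 307 events were at least 4-fold apart (52.8%, 47.0 to 58.5), beside 50.8% of all H3K4me3 events higher in KO. Since the list itself was chosen on this contrast, nothing is read from that share. With each genotype in units of its own background reads on the chromosome, a second scale that the lists allow, the median ratio was 7.03 and 87.9% were at least 4-fold apart, beside 6.77 and 87.1% for all 738. At least 10-fold differences were listed at 38 events (12.4%), beside 14.0% of all 738. At least 2-fold apart were 296 events (96.4%), beside 97.4% of all 738.

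**Figure D1:**
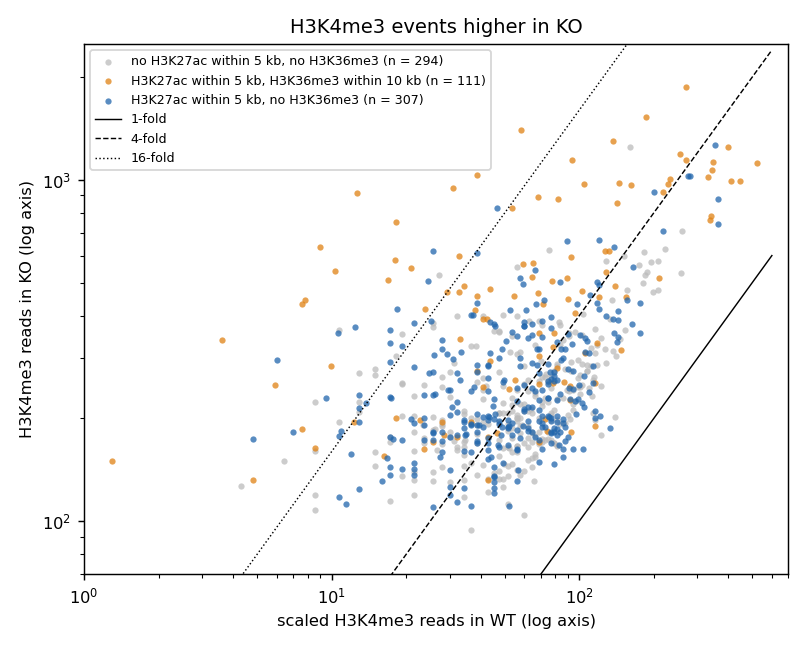
H3K4me3 reads per event in KO (vertical, log axis) against scaled reads in WT (horizontal, log axis) for events higher in KO, with lines at 1-fold, 4-fold and 16-fold. The 307 events with H3K27ac and without H3K36me3 (blue) spread over the same range as the 294 with neither (grey), and the 111 with both (orange) reach to more KO reads.

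The event with the largest −log10 q lay at 54776139 on chromosome 11. Its H3K4me3 reads were 825 in KO and, after scaling, 46.7 in WT (17.7, 11.5 to 28.0), and H3K27ac 40 bp away had 486 and 104 (4.66, 3.81 to 5.72). At 65211018 on chromosome 18 the H3K4me3 reads were 618 and 25.7 (24.0, 13.6 to 46.7), and those of H3K27ac 257 and 78.7 (3.27, 2.56 to 4.17). At 108575207 on chromosome 3 the H3K4me3 reads were 505 and 24.6 (20.5, 11.9 to 43.1), and those of H3K27ac 341 and 130.5 (2.61, 2.14 to 3.16). At these 3 places H3K4me3 in WT had from 24.6 to 46.7 scaled reads, beside a median of 55.8 for the 307. H3K27ac in WT had from 78.7 to 130.5, beside a median of 126.5. Reads of the 2 marks carry different scaling factors, so their levels are not compared.

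The leading events on chromosomes 4, 5 and 12 had more scaled H3K4me3 reads in WT, from 88.9 to 275. At 140221495 on chromosome 4, H3K4me3 had 922 reads in KO and 199.6 in WT (4.62, 3.73 to 5.78), with H3K27ac at 691 and 329.5 (2.10, 1.85 to 2.38). At 150444522 on chromosome 5, H3K4me3 had 1024 and 275 reads (3.73, 3.10 to 4.52), with H3K27ac at 502 and 183 (2.75, 2.34 to 3.24). At 96932908 on chromosome 12, H3K4me3 had 660 and 88.9 reads (7.43, 5.47 to 10.6), and H3K27ac, 1109 bp away, had 214 and 40.6 (5.28, 3.82 to 7.34). At the last of these the intervals of the 2 marks overlapped, whereas at the first the H3K4me3 interval lay wholly above that of H3K27ac.

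The largest ratios rested on few WT reads. The top value of all, 49.5 at 89359028 on chromosome 5, was made of 297 KO reads over 6 scaled WT reads (interval 15.6 to 225). Among events with at least 3 unscaled WT reads, those at 26012120 and 26012903 on chromosome 16 led with 33.6 (14.1 to 103) and 29.8 (13.1 to 78.8). The event at 33795354 on chromosome 16 had 182.5 reads against 7 (26.1, 9.52 to 138), and that at 148344182 on chromosome 1, with k-mer B, had 229.9 against 9.5 (24.2, 10.3 to 99.2). All of these intervals overlap. At the other end, 115985464 on chromosome 5 had 187 reads in KO and 133 in WT, a ratio of 1.41 (1.05 to 1.91). The next smallest ratio was 1.58 (1.14 to 2.23), on chromosome 6 at 140496765, and on chromosome 12 the event at 16860744 had 1.67 (1.23 to 2.27). Chromosome 5 at 149445479 (1.27 to 2.38) and chromosome 16 at 4469681 (1.23 to 2.47) both stood at 1.73. At the first 4 of these 5 places H3K27ac had the larger ratio, between 2.22 and 3.56.

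The H3K27ac event usually lay almost on top of the H3K4me3 event. The median distance was 208 bp (quartiles 46 and 424), 112 of the 307 pairs lay within 100 bp (36.5%, 31.1 to 42.1), and 242 within 500 bp (78.8%, 73.8 to 83.3). Within 1 kb the share was 91.9% (88.2 to 94.7), so that 25 events owed their place to H3K27ac between 1 and 5 kb away. The 111 events with H3K36me3 had a median distance of 346 bp (136 and 744), and 61.3% of them (51.5 to 70.4) had H3K27ac within 500 bp. Within 1 kb their share was 89.2% (81.9 to 94.3), close to that of the 307. These differences were not tested. Around the 307 events, 268 H3K27ac pairings lay at lower and 247 at higher coordinates, and 106 events had H3K27ac on both sides. Only 1 pair fell on the same base.

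**Figure D2:**
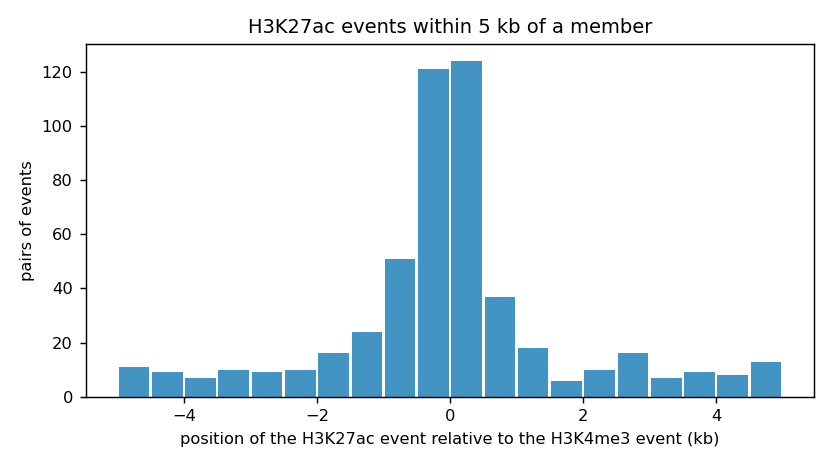
Pairs of an H3K4me3 event and an H3K27ac event of the same direction at most 5 kb away (516 pairs at 307 events), by the position of H3K27ac relative to H3K4me3 in kb, in bins of 0.5 kb. The central bins hold 121 and 124 pairs, and from 0.5 to 2 kb the bins hold 51, 24 and 16 pairs at lower and 37, 18 and 6 at higher coordinates.

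A single H3K27ac event within 5 kb was found at 153 of the 307 events, a pair at 107, 3 at 40 and 4 or 5 at 7. The median H3K4me3 ratio was 4.73 (quartiles 3.44 and 7.12) where there was 1 H3K27ac event, 3.71 (2.86 and 6.78) where there were 2 and 3.24 (2.58 and 4.83) where there were 3 or more. Median KO reads were 209, 229.9 and 229.7 in these classes, and median scaled WT reads 45.1, 57.9 and 68.7. Among the 307, places with more H3K27ac events had a higher median of scaled WT reads and a smaller median ratio. The quartiles of the ratios overlap, and the differences were not tested. Together the 307 events had 434 H3K27ac events within 5 kb, which is 5.21% of the 8323 H3K27ac events higher in KO (4.75 to 5.71).

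H3K27ac at the nearest event had a median of 405 reads in KO (quartiles 313 and 518) and 126.5 scaled reads in WT (93.6 and 176). Its median ratio was 3.14 (2.53 and 4.16), beside 2.87 over all H3K27ac events higher in KO and 4.93 at the 111 H3K4me3 events with H3K36me3. The ratio was at least 4 at 80 of the 307 (26.1%, 21.2 to 31.3), beside 18.6% of all H3K27ac events higher in KO. Some neighbours count more than once, since the 307 events share 275 nearest H3K27ac events. Counted once each, 65 of the 275 were at least 4-fold apart (23.6%, 18.7 to 29.1). Both H3K27ac lists were chosen on this contrast, so these values are a description.

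The largest nearest H3K27ac ratio, 10.9 (7.78 to 15.96), stood at 55737578 on chromosome 15 with 336 reads in KO against 30.7 in WT, beside the H3K4me3 event at 55738254, whose ratio was 2.41 (2.04 to 2.85). On chromosome 16 the H3K27ac event at 26012833 had 763 reads against 69.9 (10.9, 8.71 to 13.9) and served 2 of the 307. At 36763692 on chromosome 12, H3K27ac had 429 reads against 42.5 (10.1, 7.52 to 13.8), while H3K4me3 46 bp away had 203.5 against 81.5 (2.50, 1.76 to 3.64). At 51035321 on chromosome 2, H3K27ac had 691 reads against 70.8 (9.76, 7.80 to 12.5), and H3K4me3 91 bp away had 292 against 17.2 (17.0, 8.52 to 39.8). Large H3K27ac ratios thus went with small H3K4me3 ratios on chromosomes 15 and 12 and with large ones on chromosomes 16 and 2.

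Over the 307 events the ratio of H3K4me3 was above that of H3K27ac at 222 (72.3%), with intervals that did not overlap at 87. H3K27ac was above at 21 with intervals apart. The scaling of each mark sets this balance: with both genotypes in units of their own background reads, H3K4me3 was above at 302 of 307. On that second scale the nearest H3K27ac ratio was at or below 1 at 2 of the 307 events, the lowest being 0.887, while the lowest H3K4me3 ratio was 2.32. Across events, the 2 log2 ratios had a Pearson correlation of 0.35 (Spearman 0.31), or 0.38 in units of background reads. The points share their 2 cell lines, their chromosomes and in part their H3K27ac event, and the relation is weak. Grouped by H3K4me3 ratio, the lowest 102 events had a median H3K27ac ratio of 2.91 (quartiles 2.41 and 3.56), the middle 102 of 3.03 (2.43 and 3.53) and the highest 103 of 3.66 (2.94 and 5.03).

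**Figure D3:**
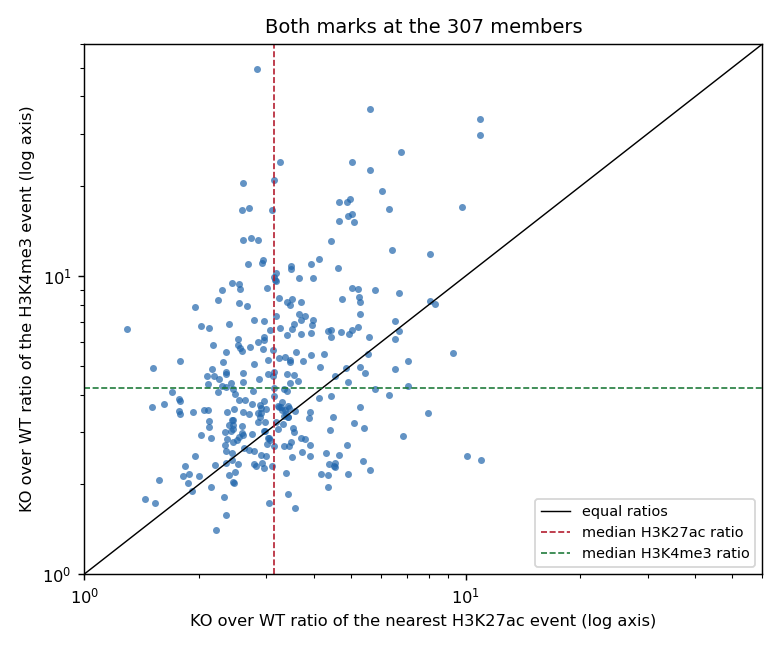
KO over WT ratio of H3K4me3 (vertical, log axis) against that of the nearest H3K27ac event (horizontal, log axis), 1 point per event (n = 307), with dashed lines at the medians of 4.20 and 3.14. At the scale of the lists 222 points lie above the line of equal ratios, and the H3K4me3 ratios reach 49.5 while those of H3K27ac reach 10.9.

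Merged within 5 kb, the 307 events formed 263 loci. Most loci, 229, held a single event, while 26 held 2, 6 held 3 and 2 held 4. Over the loci, the summed ratios had medians of 4.12 for H3K4me3 and 3.05 for H3K27ac.

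Of the 2 loci with 4 events, that at 26012120 to 26014421 on chromosome 16 had more reads. Its 4 H3K4me3 events had 356, 370, 610 and 433 reads in KO and 10.6, 12.4, 38.5 and 98.1 scaled reads in WT, in the order of their positions. WT reads rose towards the higher coordinate and the ratio fell from 33.6 (14.1 to 103) to 4.41 (3.23 to 6.08), with intervals that do not overlap. The last of the 4, at 26014421, carried k-mer A. H3K27ac had its largest ratio there at 26012833, and 6.28 (5.20 to 7.65) and 4.92 (4.06 to 5.97) at the outer events, 26010954 and 26014381. Summed, the locus had a ratio of 11.1 (8.83 to 14.3) for H3K4me3 and 6.86 (6.12 to 7.71) for H3K27ac.

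The other locus of 4 events, 148342040 to 148346636 on chromosome 1, was spread over 4597 bp. Its H3K4me3 events had 179, 229.9, 247 and 153 reads in KO and 34.5, 9.5, 37.5 and 16.8 in WT, a summed ratio of 8.23 (6.09 to 11.3). H3K27ac summed to 604 reads in KO and 98.4 in WT, a ratio of 6.14 (5.02 to 7.54). The ratios of single H3K4me3 events ran from 5.20 (3.12 to 9.32) at the first position to 24.2 (10.3 to 99.2) at the next, with intervals apart, and the other events overlapped both.

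Among loci of 3 events, 54774771 to 54776139 on chromosome 11 was uneven. H3K4me3 had a ratio of 2.51 (1.85 to 3.56) at its lowest coordinate and 15.3 (8.48 to 29.3) and 17.7 (11.5 to 28.0) at the other events, and the H3K27ac event lay at the far end, at 54776099. At 96932908 to 96934834 on chromosome 12 the middle event, with 1026 reads in KO and 281 in WT (3.65, 3.04 to 4.41), was flanked by events of 7.43 (5.47 to 10.6) and 8.18 (5.32 to 13.5), whose intervals lie above it. At 50752401 to 50753623 on chromosome 16 the ratios were 2.68 (1.87 to 3.97), 4.16 (3.14 to 5.72) and 2.56 (1.86 to 3.51), whose intervals overlap. The longest locus, 79043347 to 79048612 on chromosome 3, held 3 events over 5266 bp, and its summed ratio was 3.09 (2.53 to 3.81). The next in length, 98699806 to 98704587 on chromosome 10, had 2 events, with 2.49 (1.97 to 3.21) for H3K4me3 and 2.76 (2.50 to 3.04) for H3K27ac.

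**Figure D4:**
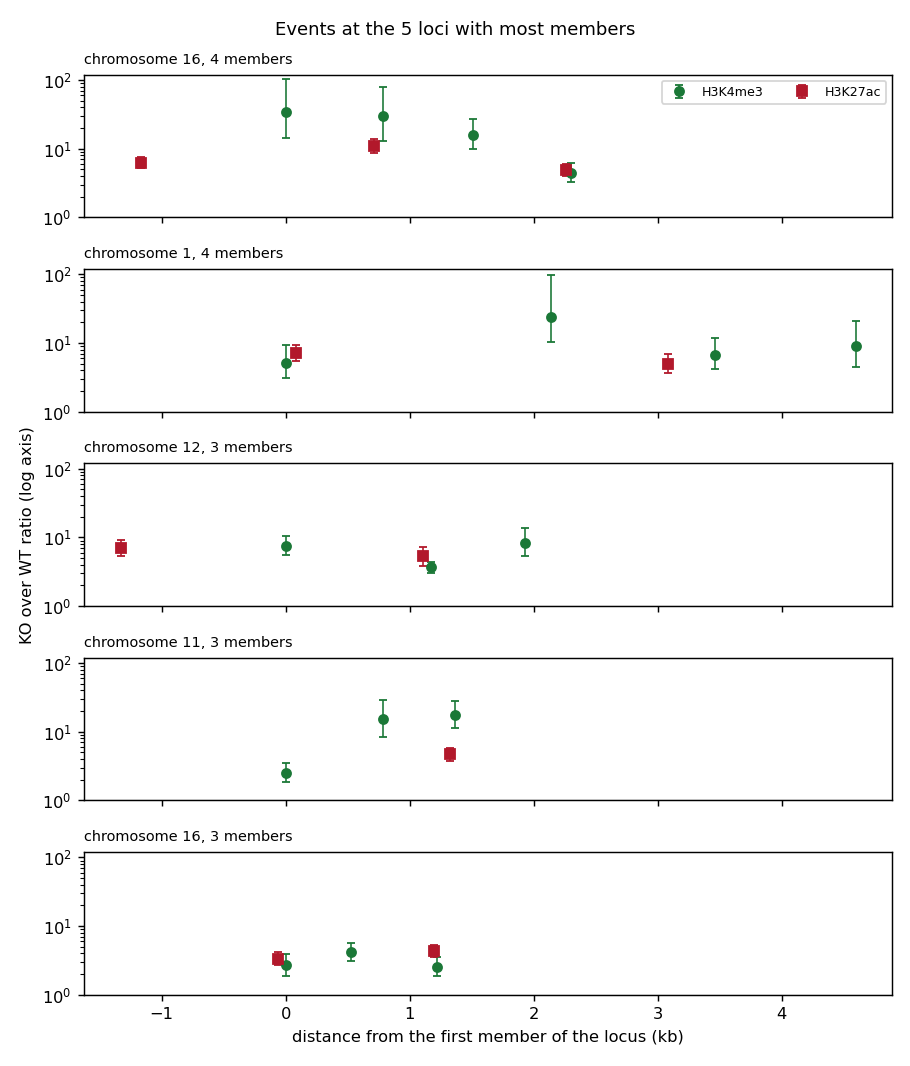
KO over WT ratio (log axis) of H3K4me3 (green) and H3K27ac (red) events at the 5 loci with most events, by distance from the first H3K4me3 event in kb, with 95% counting intervals. On chromosome 16 the top panel falls from 33.6 to 4.41 along the locus, and on chromosome 11 the first event (2.51) lies below the others.

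Events of the opposite direction were then counted around each event. Within 5 kb, 0 of the 307 had an H3K27ac or H3K4me3 event higher in WT, and the count was also 0 for the 294 events without H3K27ac or H3K36me3. Within 20 kb, 4 had an H3K4me3 event higher in WT, at 140221495 and 140220926 on chromosome 4, 134916346 on chromosome 5 and 122332324 on chromosome 10, and 0 had H3K27ac higher in WT. Of the 294, 10 had H3K4me3 and 1 had H3K27ac higher in WT within 20 kb. The nearest H3K36me3 event was at a median of 264239 bp. Between 10 and 20 kb away, 19 of the 307 had H3K36me3, higher in KO for 17 and in WT for 2. Within 50 kb the number was 67, and within 100 kb it was 100, with H3K36me3 higher in KO for 85 and in WT for 17. The same counts were not made for the other H3K4me3 events, so nothing is read from them.

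The distance limits of the rule separated some near neighbours. Just inside the 5 kb limit, the event at 122332324 on chromosome 10 had H3K27ac 4971 bp away and a ratio of 4.39 (2.93 to 6.86), followed by 32277338 on chromosome 15 (4836 bp, 4.17) and 8488189 on chromosome 8 (4522 bp, 2.55). Just outside it were 103899870 on chromosome 13 (5037 bp, 5.16), 95231837 on chromosome 10 (5974 bp, 2.81) and 113345446 on chromosome 12 (6437 bp, 18.6). For H3K36me3, the event at 55738254 on chromosome 15 was kept at 10249 bp, while its neighbour at 55737637, with 1250 reads in KO and 399 in WT (3.14, 2.68 to 3.67), was left out at 9632 bp, although both share their H3K27ac event. The next kept were 92651496 on chromosome 10 (10662 bp, 3.51) and 131294441 on chromosome 6 (12181 bp, 2.86). The others left out were 92100971 on chromosome 1 (9854 bp, 4.24) and 41108052 on chromosome 12 (9649 bp, 3.67). The lowest −log10 q among the 307 was 2.01, at 36364802 on chromosome 12, an event with k-mer C.

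The 111 H3K4me3 events that had H3K27ac within 5 kb and H3K36me3 within 10 kb had larger median ratios in both marks. Their median H3K4me3 reads were 453 in KO (quartiles 253 and 774) against 225 for the 307, and 68.7 scaled reads in WT against 55.8. Their nearest H3K27ac had a median of 433 reads in KO against 405. In WT it had fewer scaled reads, 85.9 against 126.5, and the median H3K27ac ratios were 4.93 and 3.14. The median H3K4me3 ratio was 6.33 (3.72 and 12.02) against 4.20, and 81 of the 111 were at least 4-fold apart (73.0%, 63.7 to 81.0). The 294 events with neither mark nearby had 210 reads in KO, 57.9 in WT and a median ratio of 3.52 (2.68 and 5.73), with 119 at least 4-fold apart (40.5%, 34.8 to 46.3). The 26 events with H3K36me3 but no H3K27ac nearby had a median ratio of 4.17 (2.83 and 7.12), and 13 of them were at least 4-fold apart. All 4 sets come from the same list, their quartiles overlap, and none of these differences was tested.

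The 307 events lay on every autosome and on X. Chromosome 12 had 34, chromosome 1 had 33, chromosome 3 had 26 and chromosome 16 had 23, while chromosomes 9 and X had 2 each. As a share of the H3K4me3 events higher in KO, they made up 54.8% on chromosome 12 (34 of 62, 41.7 to 67.5), 58.1% on chromosome 10 (18 of 31, 39.1 to 75.5), 20.7% on chromosome 11 (6 of 29, 7.99 to 39.7) and 18.2% on chromosome 9 (2 of 11, 2.28 to 51.8). Background reads of H3K4me3 were taken as KO over WT and divided by the median of all chromosomes. They were 1.20 on chromosome 12, 0.834 on chromosome 10, 1.01 on chromosome 11 and 0.654 on chromosome 9. The part of these differences in the counts was not tested. The median H3K4me3 ratio on chromosome 12 was 3.45, or 4.80 in units of background reads, beside 4.20 and 7.03 for all 307.

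**Figure D5:**
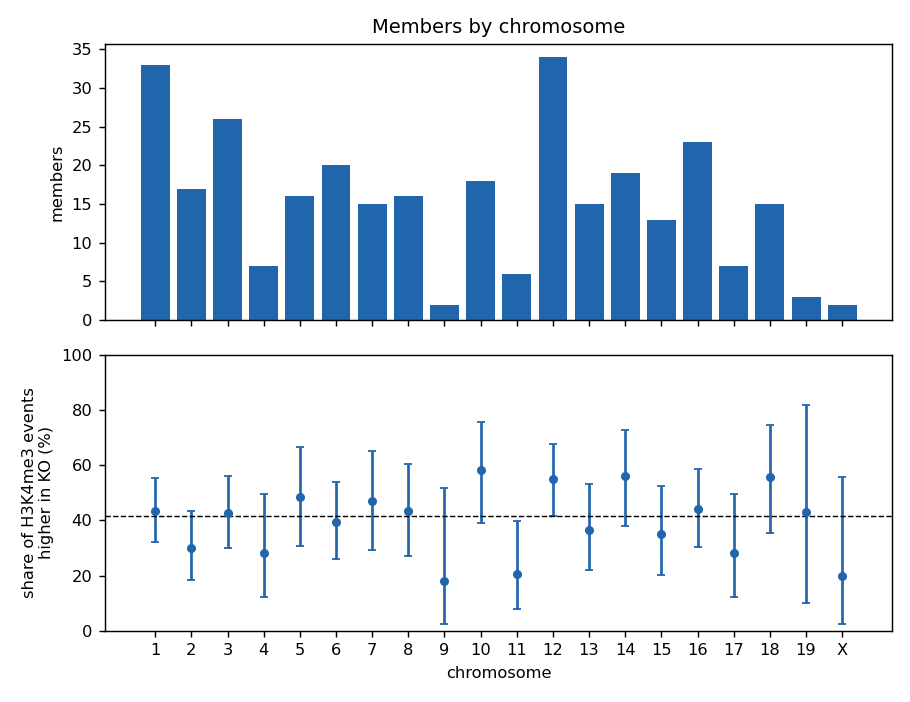
Number of the 307 events on each chromosome (top) and their share of the H3K4me3 events higher in KO on it, in percent with 95% Clopper-Pearson intervals (bottom; dashed line at 41.6%). Chromosome 12 holds most, 34, and the intervals of all chromosomes except 11 and 12 include the dashed line.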

How the data were processed

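Events were read from 6 deposited lists, 1 per mark and direction, in mouse build mm9. TopHat 1.4 is named in the submitters' processing notes without its role. Per the file names, GPS called the H3K27ac lists and the knockout H3K36me3 list and GEM the others, with H3K27ac replicates pooled. Each deposited event has an estimated count in the higher genotype, a scaled signal in the other, their deposited fold (ratio), an expected signal (here called background reads, not defined in the sources used here) and a −log10 q that the authors cut at 2. The 307 events and all lists were chosen with earlier results of these data known.

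The factor that the authors' software had put on WT reads was recovered as the step (0.3 to 3, by 0.0005, tolerance 0.06) that made most control values whole multiples, taking the largest of steps that divide each other. It was 2.15 for H3K4me3 (94.4% whole, among the 463 of 738 events whose own count was whole) and 0.85 for H3K27ac (88.8%, among 3971 of 8323). Code was tested on simulated data. Ratio intervals are exact conditional binomial (Clopper-Pearson) at 95%, and shares have Clopper-Pearson intervals; reads and events are taken as independent, which PCR duplicates and neighbouring events are not. Named events follow fixed ranks: the 8 largest −log10 q, the 5 largest and 5 smallest ratios with at least 3 unscaled WT reads, the 5 largest nearest H3K27ac ratios, the 5 loci with most events, the 3 longest, and 3 on each side of each distance limit. K-mer events were named by −log10 q, a rule added after seeing the data. Genes and event sequences were not assigned, because the reference tables used here are in GRCm38. The tools were SciPy 1.17.1 for intervals, pandas 2.3.3 and NumPy 2.4.6 for tables, matplotlib 3.10.9 for figures, all under Python 3.11.15.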

Additional observations from a re-analysis of the deposited data

How the results depend on the processing

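Of 27 alternatives over 7 results, 23 left the count within 1.5 times the value given or the median or share inside its 95% interval. Among the 23 are the settings with a minimum of 50 reads, which could not change a value. Every event had at least 110 KO reads for H3K4me3 and 149 for the nearest H3K27ac, so none was removed. In units of background reads the median H3K4me3 ratio of the 307 events was 7.03 (6.77 for all H3K4me3 events higher in KO), the nearest H3K27ac ratio 2.30 (2.10 for all H3K27ac events higher in KO), and 87.9% were at least 4-fold apart for H3K4me3. At a 2-fold threshold the share was 96.4%, by construction. With H3K27ac within 1 kb there were 282 events, and with H3K36me3 absent within 5 or 20 kb 345 or 288. Leaving out chromosome 12 and the alternatives for k-mers were added after seeing the data. No paired analysis was possible because each list gives 1 value per genotype, and no replicate could be left out. Depth limits the largest ratios, which rest on a few WT reads.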

Other observations

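Some of the 263 loci lay close together. Within 1 Mb of another locus were 100 of them, and 163 stood alone. No such count was made for the other H3K4me3 events higher in KO, and no expected share was worked out. Whether these loci lie closer together than those events was therefore not tested. The largest group of neighbouring loci held 4 loci over 1.45 Mb at 76576484 to 78027431 on chromosome 10, with H3K4me3 ratios from 2.36 to 11.3. On chromosome 14, 3 loci within 0.129 Mb at 119034830 to 119163584 had ratios of 9.61 (4.30 to 26.8), 9.92 (5.44 to 20.1) and 9.85 (4.34 to 32.8), with wide intervals that overlap. On chromosome 7, 3 loci within 0.11 Mb at 52707196 to 52816822 ranged from 2.20 to 9.03. Among further groups of 3 loci, some lay on chromosome 12, such as 33855255 to 34064886, 36364802 to 36763738 and 41226037 to 41285927. Others lay at 149445479 to 150444522 on chromosome 5, 144011066 to 144850964 on chromosome 6 and 65994346 to 66710040 on chromosome 14.

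The H3K4me3 list of events higher in WT carried other k-mers, CGCCCGGT at 139 events, CCCCCGGT at 108 and CGCCCTGT at 106 of 5542, and none of these was given at any of the 738 events higher in KO. Because GEM learns its k-mers from the data it is given, nothing is read from this absence. A k-mer was given at 353 of the 5542 events (6.37%) and at 126 of the 738 (17.1%), a difference that was not tested.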
